A study of Homo sapiens with 42 samples.

Results

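The comparison described here is THZ1 against DMSO in HAP1 cells that carry the CDK7 substitution C312S. It uses 6 of the 42 polyadenylated RNA libraries of the series, 3 with THZ1 and 3 with DMSO, chosen by their labels alone and by no measured value. HAP1 is a near-haploid cell line that was derived from a chronic myeloid leukaemia. Both groups carry the substitution and were collected after 24 h of treatment, so by their labels the 2 groups differ in THZ1 alone. The dose of THZ1, the way the substituted line was made and the number of its clones are not given in the labels used here. Another 6 libraries of HAP1 cells labelled WT, 3 with THZ1 and 3 with DMSO at the same time, served to show where the substituted line differed. No label ties the 3 libraries of either group to separate cultures. Every p-value here speaks only of the spread among libraries, part or all of which may be technical. For the tests of genes this spread was pooled over all 42 libraries, those of other treatments included.

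CDK7 pairs with cyclin H and MAT1 to form the CDK-activating kinase. Free of TFIIH, this complex phosphorylates the T-loops of the cell cycle kinases CDK1 and CDK2. Within TFIIH it phosphorylates the C-terminal domain of RNA polymerase II and thereby bears on promoter escape, pausing and capping. THZ1 is a covalent inhibitor that binds a cysteine of CDK7 outside the kinase fold, and it also reacts with the related cysteines of CDK12 and CDK13, kinases of transcript elongation whose loss is known to lower the RNA of long DNA repair genes. Replacing the CDK7 cysteine by serine removes the covalent bond to CDK7 and leaves the cysteines of CDK12 and CDK13 in place.

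The 3 coding stretches around these cysteines are shown because they define the line: the first holds the codon that is changed in the C312S cells, and the other 2 hold codons that are not. They are the reference sequences of GENCODE release 29, printed 5′ to 3′ with the cysteine codon in capitals and 30 bases on each side.
CDK7, the residue changed in C312S, exon 11, plus strand, codon at chr5:69276612-69276614 (GRCh38): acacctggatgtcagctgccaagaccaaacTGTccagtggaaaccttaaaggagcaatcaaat
CDK12, residue 1039, exon 12, plus strand, codon at chr17:39524693-39524695 (GRCh38): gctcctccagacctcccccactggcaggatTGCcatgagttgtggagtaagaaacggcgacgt
CDK13, residue 1017, exon 12, plus strand, codon at chr7:40088145-40088147 (GRCh38): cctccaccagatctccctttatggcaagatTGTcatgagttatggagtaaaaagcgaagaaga
The CDK12 and CDK13 stretches share 47 of 63 bases at the same positions, and the CDK7 stretch lies near the end of a shorter coding sequence (346 codons, against 1490 in CDK12 and 1512 in CDK13). The deposited values are gene levels and hold no reads, so the codon of the 2 lines could not be read from them.

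The gene levels are FPKM (fragments per kilobase of transcript, scaled between libraries with settings that are not stated), and the depth of each library is unknown because the table holds no counts. Libraries of 1 group correlated across genes at 0.976 to 0.979, against 0.958 to 0.963 between THZ1 and DMSO libraries. The C312S DMSO and THZ1 libraries together stood apart from the other 15 C312S libraries: their FPKM summed to 780085 to 913367 per library, against 542909 to 597533. THZ1 replicate 3 had the highest sum. The level of the ERCC spike-in RNAs over the gene level also separated them, at a mean of 0.76 on the log2 scale for DMSO and 0.98 for THZ1, against -0.80 to -0.03 for the means of the other 5 C312S groups. Most marker genes of other cell types were low: of 20 blood cell markers 16 were under 1 FPKM in all 6 libraries and 7 were at 0 in all 6, and the summed level was 10.1 to 11.0 FPKM with DMSO and 15.5 to 18.4 with THZ1. Of 18 epithelial and fibroblast markers 12 were under 1 FPKM in all 6 libraries. The sum of all 18 was 276 to 293 FPKM with DMSO and 259 to 272 with THZ1. Most of this sum was VIM, at 238 to 251 FPKM with DMSO and 211 to 221 with THZ1, so its direction is mainly that of VIM. Of the 8 markers tested, 5 rose and 3 fell in C312S cells, VIM among the latter, against 33.9% and 29.7% of all genes tested. The labelled tissue is a leukaemia, yet PTPRC, the pan-leukocyte marker CD45, was at 0 in the 3 DMSO libraries and at most 0.163 FPKM with THZ1, and SPI1, GATA1 and MPO were at 0 in all 6. Other blood cell markers were present. GATA2 was at 6.33 to 7.20 FPKM with DMSO and 8.49 to 9.53 with THZ1, and HBA1 at 1.32 to 2.10 and 4.16 to 5.05. TAL1 was at 1.01 to 1.23 FPKM with DMSO and 0.88 to 1.14 with THZ1, and CD33 at 0.20 to 0.65 and 0.53 to 1.23.

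THZ1 changed the RNA levels of C312S cells widely but mostly by small amounts. Immediate early genes such as FOS and MYC, chaperone genes and several histone genes rose, while AURKB, BRCA1, SLC25A11 and TINF2 were among the genes that fell. Of the 12816 genes tested, 8149 (63.6%) passed adjusted p under 0.05, 4339 (33.9%) higher and 3810 (29.7%) lower with THZ1. Only 117 of these rose and 203 fell by 2-fold or more on the log2(FPKM + 1) scale, and the median change over all genes was 0.02. With so many genes called, the size of a change and the separation of libraries carry more than the call itself. In WT cells 8816 genes (68.8%) were called, 4352 higher and 4464 lower, with 256 rises and 295 falls of 2-fold or more. The effect of THZ1 differed between the lines for 5408 genes (42.2%), with C312S above WT for 2872 (22.4%) and below for 2536 (19.8%).

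All changes given here are relative to the level of the other genes, and the spike-in RNAs give another scale. In C312S cells it was 0.84, 0.60 and 0.83 log2 with DMSO and 0.90, 0.85 and 1.19 with THZ1. The libraries did not overlap, but the gap between the groups was smaller than the range within each, and the mean rose by 0.22 log2 or 1.17-fold (exact two-sided permutation p = 0.1, the smallest that 3 against 3 can give). In WT cells the same level rose by 2.44 log2 or 5.42-fold (exact p = 0.1). Spike-in scaling moved the median change of all genes by -0.15 in C312S and -1.98 in WT cells, and the difference between the lines by 1.83. On that scale 5052 genes were called in C312S cells and 19.7% of them were higher, against 53.2% without it, and the share was 40.3% with total-FPKM scaling. Of the 107 named C312S changes 19 lost their call on that scale, with CDK7 at 0.10, CDK12 at 0.31, CDK13 at 0.20 and BUB1B at 0.12 log2, and 3 small ones changed sign. Of the 22 named differences with an estimate below 0, whether or not it passed the test, 20 were above 0 with spike-in scaling (not A2M and SPARCL1). The reversed differences listed further below are only those that had passed. Above 0 on that scale were also the medians of all 14 lists, of 26 in all and the cell type markers included, whose median difference was below 0. Statements that C312S was above or below WT refer to the gene level. How the spike-ins were added is not stated in the sources used here, and a difference between the lines also holds any difference between clones or sets of libraries, which cannot be told apart.

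**Figure D1:**
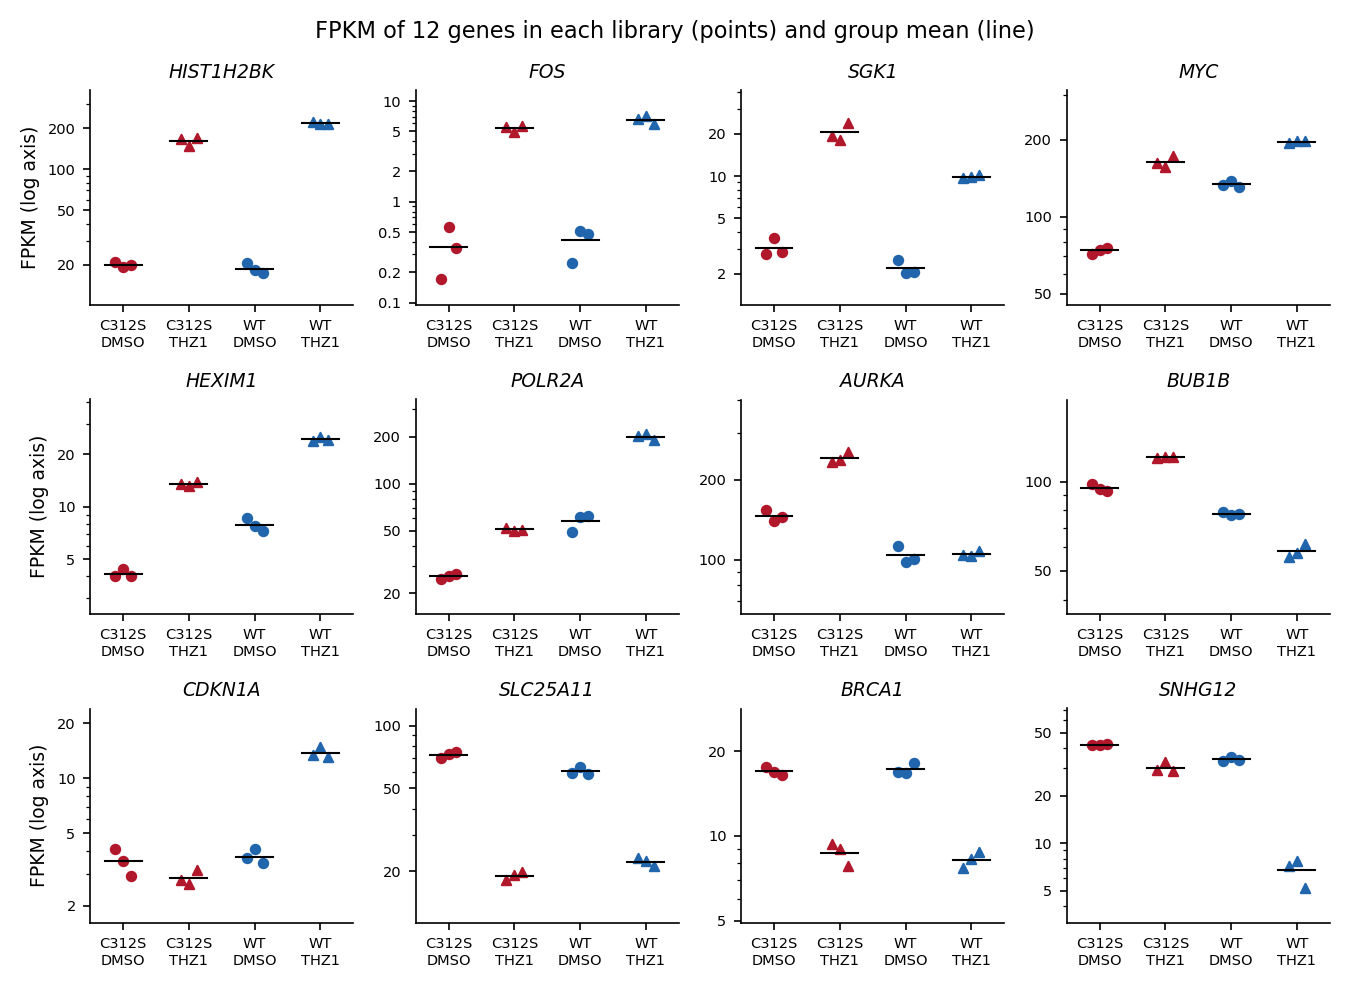
FPKM of 12 genes in each of the 12 libraries (points, log axis that differs by panel) with the mean of each group of 3 (line), C312S in red and WT in blue, DMSO as circles and THZ1 as triangles. In the C312S panels the THZ1 points lie away from the DMSO points for all genes shown but CDKN1A, whose groups overlap.

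Among the factors that carry out transcription, CDK7 itself was higher with THZ1 in C312S cells. It stood at 61.5, 58.5 and 61.5 FPKM with DMSO and at 75.3, 75.5 and 76.6 with THZ1. All 3 THZ1 libraries lay above all 3 DMSO libraries, a change of 0.32 log2 (95% interval 0.21 to 0.43, adjusted p = 7.76e-06). In WT cells the mean CDK7 level was 38.2 ± 2.0 FPKM (SD, n = 3) with DMSO and 34.2 ± 2.1 with THZ1, a change of -0.15, and the 2 effects differed by 0.47 (0.31 to 0.63, adjusted p = 1.2e-05). Of the 10 genes of the CDK-activating kinase and TFIIH, 7 rose and 2 fell in C312S cells, against 33.9% and 29.7% of all genes. Their median was 0.24, against 0.02 over all genes. In WT cells 3 rose and 3 fell, near the 34% and 34.8% of all genes, with a median near 0. The TFIIH helicase gene ERCC3 rose by 0.44 log2 and the core subunit gene GTF2H1 by 0.29. The MAT1 gene MNAT1 rose by 0.25. The cyclin H gene CCNH rose by 0.16 with libraries that overlapped (72.9 to 86.5 FPKM against 83.9 to 94.2), and it did not pass without DMSO replicate 2 (0.10), DMSO replicate 3 (0.15) or THZ1 replicate 3 (0.11). The 2 members that fell were the TFIIH subunit genes GTF2H3, by 0.37, and GTF2H2, by 0.91, the latter a gene with a near-identical copy whose reads may have been split.

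The elongation genes moved mostly upward. HEXIM1, an inhibitor of the elongation kinase P-TEFb, was at 4.04, 4.39 and 4.02 FPKM with DMSO and at 13.6, 13.3 and 14.0 with THZ1. The groups lay far apart, and the change of 1.50 log2 (1.41 to 1.60, adjusted p = 6e-22) had nearly the same size in WT cells (1.52, difference -0.01, interval -0.15 to 0.12). Of 30 tested elongation and pausing genes 19 rose and 5 fell in C312S cells (median 0.33), against 33.9% and 29.7% of all genes. In WT cells 17 rose and 8 fell (median 0.22), against 34% and 34.8% of all genes. The targets that keep their cysteine were among the higher genes: CDK12 rose by 0.53 log2 and CDK13 by 0.42. Their cyclin partner CCNK rose by 0.41, and the elongation factor gene SUPT5H by 0.84. NELFE, a subunit of the negative elongation factor, went the other way, from 81.2, 81.4 and 83.1 FPKM to 31.0, 34.6 and 37.6. This fall of 1.23 log2 was deeper than in WT cells (-0.43), with a difference of -0.80 (-0.97 to -0.63, adjusted p = 4.8e-09). CDK9, the kinase of P-TEFb, fell by 0.39.

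POLR2A, the largest subunit of RNA polymerase II and the carrier of the C-terminal domain, rose in both lines, and by less in C312S cells. It was at 24.6, 25.6 and 26.6 FPKM with DMSO and at 52.5, 49.6 and 50.9 with THZ1 in C312S cells. All THZ1 libraries lay above the DMSO libraries (ratio of means 1.99; change 0.97 log2, 0.81 to 1.12). In WT cells POLR2A went from 57.5 ± 7.1 to 200.1 ± 8.5 FPKM, a change of 1.79, and the difference between the lines was -0.82 (-1.04 to -0.60, adjusted p = 3.5e-07). Of the 12 subunits 4 rose and 3 fell in C312S cells, near the 33.9% and 29.7% of all genes, with a median of -0.06. POLR2G, which forms the stalk of the enzyme, fell from 250, 230 and 229 FPKM to 135, 138 and 163, and the shared subunit gene POLR2H fell by 0.50 log2.

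The immediate early genes, which growth factors and stress switch on within minutes, rose in most cases. Of 34 tested, 27 rose and 1 fell in C312S cells (median 0.51), against 33.9% and 29.7% of all genes. In WT cells 29 rose and 2 fell (median 0.56), against 34% and 34.8% of all genes. With total-FPKM or spike-in scaling the C312S median was 0.38 or 0.27. FOS, a subunit of the AP-1 transcription factor, was at 0.172, 0.558 and 0.348 FPKM with DMSO and at 5.51, 4.95 and 5.70 with THZ1. SGK1, a serum- and glucocorticoid-induced kinase, was at 2.75, 3.59 and 2.88 FPKM and then at 19.3, 18.2 and 24.1. Both genes were low in every DMSO library and several times higher in every THZ1 library. FOS changed by 2.24 log2 in C312S and 2.42 in WT cells, a difference with an interval of -0.50 to 0.14. SGK1 rose more in C312S cells, by 2.40 against 1.77 (difference 0.63, 0.35 to 0.91, adjusted p = 0.00044). IER2, a short immediate early gene, rose by 2.03 log2, from 8.19 to 10.6 FPKM in the DMSO libraries to 38.6 to 46.7 in the THZ1 libraries.

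MYC, the transcription factor whose level is often taken as a readout of CDK7 inhibition, was higher and not lower after 24 h of THZ1. Its C312S libraries stood at 71.5, 74.5 and 75.8 FPKM with DMSO and at 163, 157 and 172 with THZ1. Every THZ1 library was far above every DMSO library, and the change was 1.14 log2 (1.03 to 1.25, adjusted p = 8.95e-18). WT cells began higher, at 134 ± 3.5 FPKM, and reached 196 ± 2.0, a change of 0.55. The difference of 0.59 (0.43 to 0.74, adjusted p = 2.1e-07) put the C312S effect above the WT effect. Other immediate early genes rose less in C312S than in WT cells. IER3, an early stress gene, changed by 1.35 log2 against 2.64 (difference -1.28), and KLF10, a TGF-beta-responsive repressor, by 0.65 against 1.69 (difference -1.04).

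Genes driven by YAP, TEAD and SRF, factors of cytoskeletal tension and serum response, rose as well. In C312S cells 17 of 29 were higher and 0 lower, against 33.9% and 29.7% of all genes. In WT cells 22 were higher and 0 lower, against 34% and 34.8% of all genes. Their median was 0.20 in C312S and 0.58 in WT cells, and it was 0.00 in C312S with spike-in scaling. CTGF, a matricellular YAP target, went from 5.52, 5.61 and 6.81 FPKM to 18.6, 18.5 and 20.7. The groups did not overlap, and the rise of 1.54 log2 was smaller than the 2.09 of WT cells (difference -0.55, -0.72 to -0.39). CYR61, its close relative, changed by 0.19 in C312S cells and by 1.06 in WT cells (difference -0.87). The actin genes ACTB and ACTG1 rose by 0.92 and 0.68 log2, and for ACTG1 the C312S rise exceeded that of WT cells by 0.37 (0.26 to 0.49).

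The promoters of EGR1 (an immediate early zinc finger factor that rose by 0.42 log2, named for its promoter with its values known) and ACTG1 are shown because each holds a CArG box, the SRF binding motif, written here by name and searched on both strands. The stretches are from RefSeq promoters (GRCh38.p14) before the start of the gene, with the motif in capitals.
EGR1, plus strand, chr5:138465354-138465403: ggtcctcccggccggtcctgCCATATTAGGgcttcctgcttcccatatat
ACTG1, minus strand, chr17:81512864-81512913: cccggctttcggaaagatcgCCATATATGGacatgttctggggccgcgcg
Within the 250 bases before the start, 3 of 25 immediate early genes and 6 of 25 YAP, TEAD and SRF targets with an entry held this motif, against 1.44% of the 27305 genes of the table. A match describes the letters of the window and not a bound site.

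**Figure D2:**
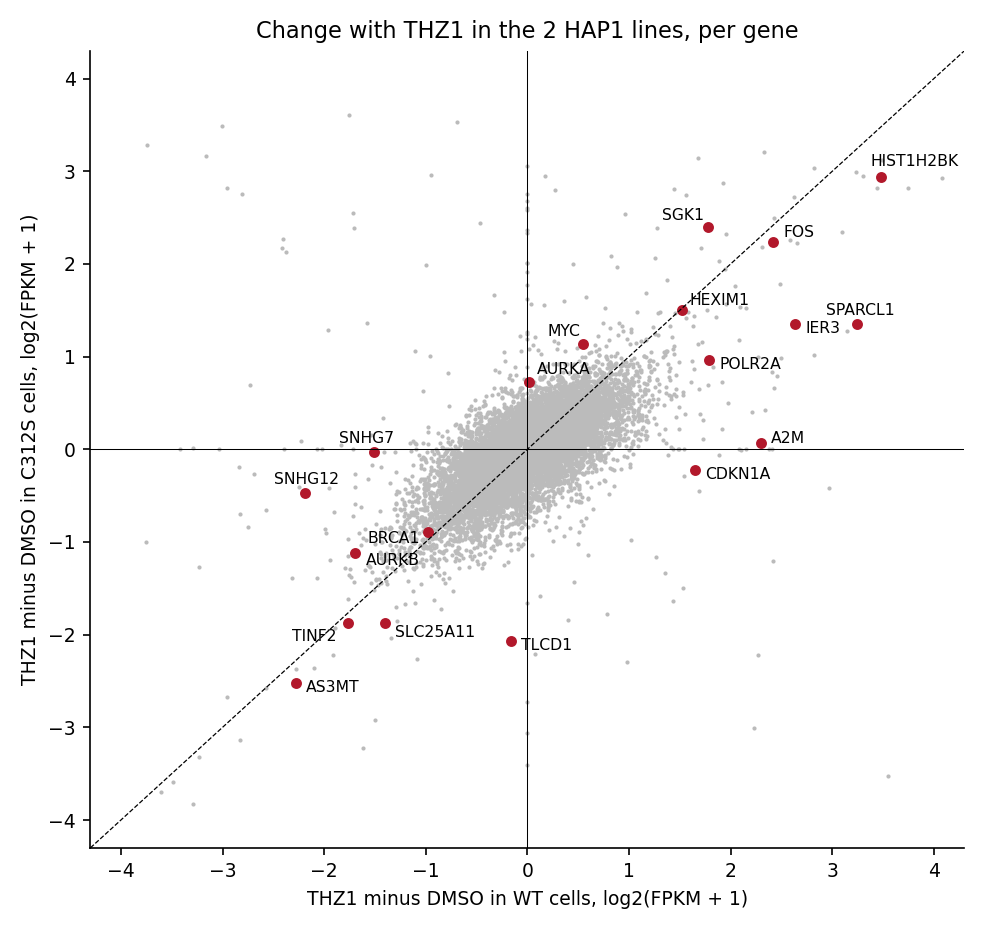
Change with THZ1 per gene on the log2(FPKM + 1) scale in WT cells (horizontal axis) and C312S cells (vertical axis), with 12791 genes in grey, 19 named genes in red and equal change as a dashed line. Most genes lie along the dashed line, MYC and SGK1 lie above it, and CDKN1A, A2M and SPARCL1 lie far below it.

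Across the 12816 genes the changes in the 2 lines, which share no library, had a Pearson correlation of 0.59 and a Spearman correlation of 0.67, given as a description since genes are not independent replicates. In all, 2913 genes rose in both lines and 2704 fell in both, while 388 rose in C312S and fell in WT cells and 283 did the reverse. The genes that moved most in WT cells mostly moved in C312S cells too. Of the 100 largest WT rises (named-gene filters, chosen on WT libraries alone), 94 were called higher in C312S cells, against 33.9% of all genes, and 1 lower, with a median of 0.96 against 1.48 in WT. Of the 100 largest WT falls, 96 were called lower in C312S cells, against 29.7% of all genes, with a median of -1.08 against -1.42. Chosen the other way, the 100 largest C312S rises had a median of 1.12 in C312S and 1.10 in WT cells, with 96 called higher in WT, against 34% of all genes. The 100 largest C312S falls had medians of -1.26 and -1.16, with 99 called lower in WT, against 34.8% of all genes. Genes picked for the size of their change in 1 line are by that choice large in it, so the 2 pairs of medians are to be read together. The all-gene shares also cover genes that the named-gene filters leave out, such as low ones, so they are no matched background.

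Among genes of G2 and mitosis more rose than fell in C312S cells, and more fell than rose in WT cells. In the G2 and mitosis list 23 of 48 genes rose and 9 fell in C312S cells, against 33.9% and 29.7% of all genes. Their median of 0.11 turned to -0.09 with spike-in scaling. In WT cells 10 rose and 26 fell, against 34% and 34.8% of all genes, with a median of -0.19. For 36 of the 48 the C312S effect was above the WT effect and for 0 below, against 22.4% and 19.8% of all genes. AURKA, the spindle pole kinase, was at 154, 140 and 144 FPKM with DMSO and at 234, 238 and 255 with THZ1. These groups did not overlap (change 0.73 log2, 0.63 to 0.82), whereas WT cells stood at 104 ± 7.8 and 105 ± 2.5 FPKM (change 0.02), a difference of 0.71 (0.57 to 0.85, adjusted p = 6.6e-10). TPX2, which activates AURKA on spindle microtubules, went from 180, 176 and 182 FPKM to 320, 308 and 330, and its rise of 0.83 log2 exceeded that of WT cells by 0.49. BUB1B, a spindle checkpoint kinase, went in opposite directions in the 2 lines. Its C312S libraries were at 98.3, 94.1 and 92.7 FPKM and then at 120, 121 and 121, while WT cells fell from 78.0 ± 0.9 to 58.4 ± 2.9. The 2 changes were 0.34 and -0.41 log2 and differed by 0.76 (0.65 to 0.86, adjusted p = 7.5e-13). The mitotic kinesin genes KIF4A and KIF23 rose by 0.72 and 0.68 log2.

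A smaller part of the mitotic list fell in both lines. AURKB, the kinase of the chromosomal passenger complex, fell from 124, 126 and 132 FPKM to 58.2, 58.3 and 57.2 in C312S cells. The change of -1.12 log2 (-1.26 to -0.99) was less deep than the -1.69 of WT cells (difference 0.57). CDCA3, which marks mitotic entry inhibitors for destruction, fell by 0.77 log2 and the phosphatase gene CDC25B by 0.72. CDK1, the mitotic kinase that CDK7 phosphorylates, was at 204 to 228 FPKM with DMSO and 211 to 213 with THZ1, a change of -0.01 that did not pass the test (interval -0.14 to 0.12), while it fell by 0.33 in WT cells (difference 0.31, 0.13 to 0.50).

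The promoters of BUB1B and KIF4A are shown because each holds a CHR element, the motif TTTGAA or TTTAAA through which the DREAM and MuvB complexes time late cell cycle genes. They are RefSeq promoter stretches (GRCh38.p14) with the motif in capitals, both on the plus strand.
BUB1B, chr15:40161026-40161068: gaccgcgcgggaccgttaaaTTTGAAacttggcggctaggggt
KIF4A, chrX:70290050-70290095: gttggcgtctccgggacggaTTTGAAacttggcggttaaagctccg
Searched on both strands of the 250 bases before the start, the motif was present in 30 of 41 G2 and mitosis genes with an entry (73.2%) and in 7 of 44 S phase genes (15.9%), against 25.5% of all genes of the table. Among the mitotic genes named above, KIF23 and CDK1 also held it. No match was found for AURKA, TPX2, AURKB or CDCA3, whether for lack of the motif or of an entry.

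**Figure D3:**
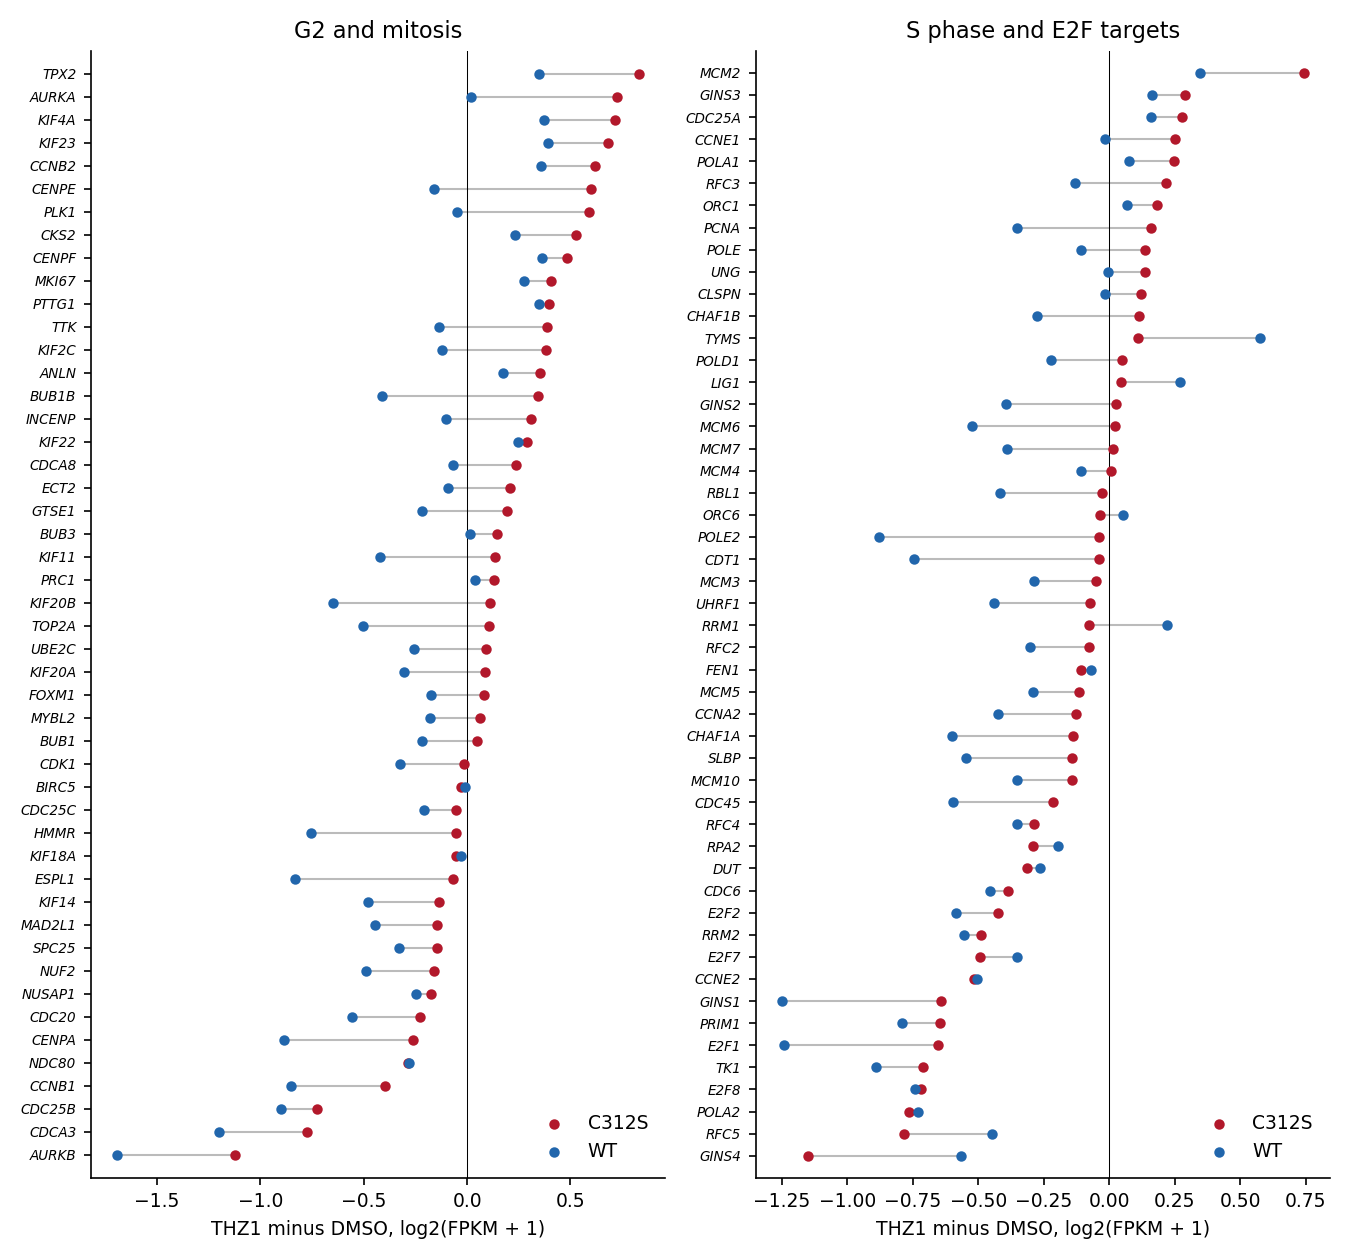
Change with THZ1 on the log2(FPKM + 1) scale for the tested genes of the G2 and mitosis list (left, 48 genes) and of the S phase and E2F list (right, 50 of 51 genes), C312S in red and WT in blue, joined by a grey line and ordered by the C312S change. Most red points lie to the right of the blue points on the left, from TPX2 (0.83) to AURKB (-1.12) in C312S.

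Of 51 S phase and E2F target genes, 13 rose and 23 fell in C312S cells (median -0.08), against 33.9% higher and 29.7% lower over all genes. In WT cells 6 rose and 36 fell (median -0.35), against 34% and 34.8% of all genes. The C312S effect was above the WT effect for 25 and below for 6, against 22.4% and 19.8% of all genes. E2F1, the activating factor of this programme, was at 16.05, 19.4 and 18.1 FPKM with DMSO and at 11.8, 11.3 and 9.85 with THZ1. The groups were apart, and the fall of 0.65 log2 compared with -1.24 in WT cells (difference 0.59, adjusted p = 1.4e-05). MCM6, a subunit of the replicative helicase, did not pass the test in C312S cells, with 133 to 146 FPKM against 135 to 144 (change 0.02, -0.05 to 0.10), and fell by 0.52 in WT cells (difference 0.55, 0.44 to 0.66). Another helicase subunit gene, MCM2, rose by 0.74 log2.

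GINS4, a subunit of the GINS complex of the replisome, fell by 1.15 log2, and POLA2, a subunit of the DNA polymerase alpha complex, by 0.76. CDK2, the S phase kinase activated by CDK7, fell further in C312S cells. It went from 86.7, 79.5 and 83.5 FPKM to 43.5, 45.6 and 46.9, a change of -0.86 against -0.45 in WT cells (difference -0.41, -0.51 to -0.30). Of its cyclins, CCNE1 rose by 0.25 log2 and CCNE2 fell by 0.51.

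CDKN1A, the p53 target p21 that inhibits CDK2, rose with THZ1 in WT cells and did not rise in C312S cells. In C312S cells it was at 4.09, 3.52 and 2.90 FPKM with DMSO and at 2.77, 2.64 and 3.15 with THZ1. The groups overlapped, and the change of -0.22 (-0.42 to -0.02) barely passed the test (adjusted p = 0.0471). It did not pass without DMSO replicate 1 (-0.13), DMSO replicate 2 (-0.21), THZ1 replicate 1 (-0.21) or THZ1 replicate 2 (-0.18). In WT cells it rose from 3.72 ± 0.35 to 13.8 ± 0.9 FPKM, a change of 1.64, so that the effects differed by -1.86 (-2.14 to -1.59, adjusted p = 3.1e-12). With spike-in scaling, which shifts all differences between the lines upward, this one became 0.13. In the p53 target list 9 of 27 genes were higher and 8 lower in C312S cells, close to the 33.9% and 29.7% of all genes. The list median of 0.01 turned negative with total-FPKM (-0.09) and spike-in (-0.20) scaling. In WT cells 12 genes of the list were higher and 9 lower (median 0.05), against 34% and 34.8% of all genes. The stress kinase gene PLK2 rose by 1.47 log2 and the mitochondrial reductase gene FDXR by 0.60 in C312S cells, against 1.29 and 1.44 in WT cells. The death effector gene BAX fell by 0.79 and the cyclin G1 gene CCNG1 by 0.80 in C312S cells, against 0.66 and 0.63 in WT cells. MDM2, the ubiquitin ligase of p53, was at 22.4 to 24.0 FPKM with DMSO and 21.9 to 23.4 with THZ1 in C312S cells, a change of -0.03 that did not pass. In WT cells MDM2 fell by 0.52.

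Of 34 repair genes that have been reported as CDK12-dependent, 16 fell and 7 rose in C312S cells (median -0.08), against 29.7% lower and 33.9% higher over all genes. In WT cells 21 fell and 2 rose (median -0.27), against 34.8% and 34% of all genes. BRCA1, of homologous recombination, was at 17.5, 16.9 and 16.5 FPKM with DMSO and at 9.35, 8.96 and 7.84 with THZ1. Every THZ1 library was well below every DMSO library, and the fall of 0.89 log2 (interval of the change -0.99 to -0.78) was close in size to the -0.98 of WT cells (difference 0.09, -0.06 to 0.24). ORC3, an origin recognition subunit, fell by 1.02 log2 and FANCG, of the Fanconi anaemia core complex, by 0.68. FANCA, of the same complex, went from 9.66, 11.4 and 10.9 FPKM to 27.1, 28.4 and 27.96. Its rise of 1.31 log2 exceeded the 0.81 of WT cells (difference 0.49, 0.37 to 0.62). RAD50 and NBN, partners in the MRN complex, rose by 0.38 and 0.34.

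Relative to the level of the other genes, longer genes rose and shorter genes fell on balance. When the 12143 genes matched to GENCODE 29 (94.7%) were sorted by gene span into 5 groups of equal size, the median C312S change went from -0.11 in the shortest (median span 4.59 kb) through -0.03, 0.03 and 0.07 to 0.12 in the longest (158 kb). In WT cells the same groups ran from -0.14 to 0.09. These groups were not recomputed with spike-in scaling, which moved the median change of all genes by -0.15 in C312S and -1.98 in WT cells. Of the genes called in C312S cells, 35.3% were higher with THZ1 in the group of the shortest genes and 70.0% in that of the longest. Across genes the Spearman correlation of the change with span was 0.198 in C312S and 0.161 in WT cells, and that with transcript GC content was -0.094 and -0.101, both given as descriptions.

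**Figure D4:**
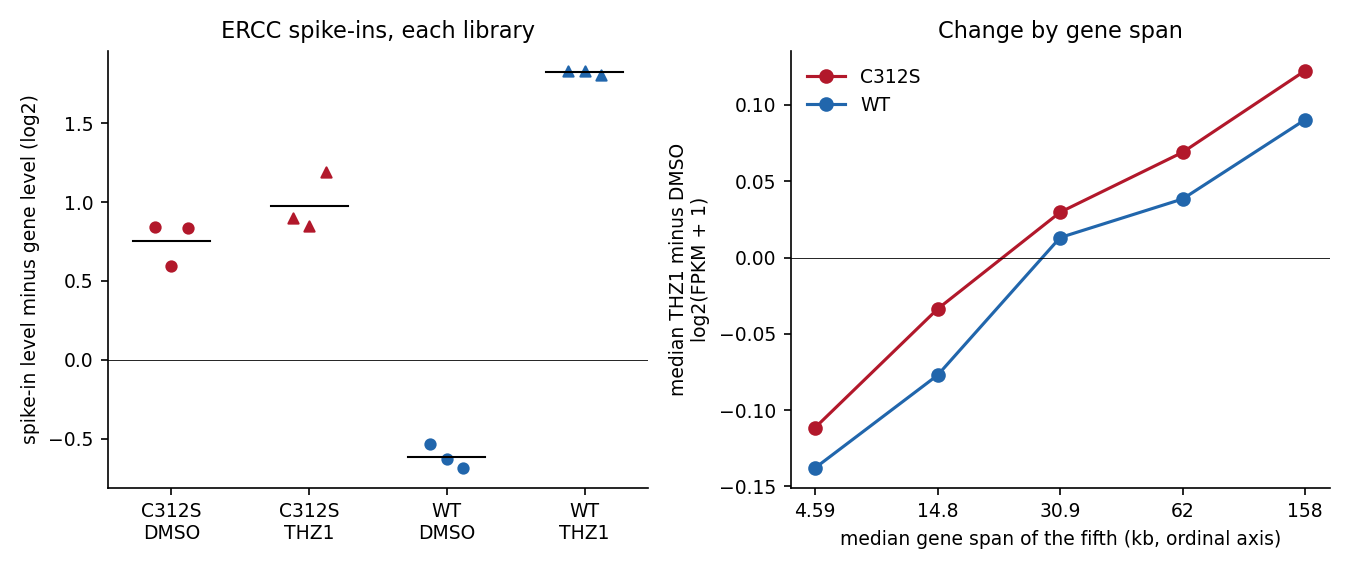
Left, level of the ERCC spike-in RNAs minus the gene level on the log2 scale in each library (points) with the group mean (line). Right, median change with THZ1 in 5 groups of genes ordered by span, C312S in red and WT in blue, where both curves rise from left to right. The C312S THZ1 libraries (0.85 to 1.19) lie just above the DMSO libraries (0.60 to 0.84), and the WT groups lie far apart.

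Histone genes made up 6 of the 12 largest rises by the naming rule. HIST1H2BK, which encodes an H2B histone, was at 20.9, 19.2 and 19.8 FPKM with DMSO and at 166, 147 and 168 with THZ1. The THZ1 libraries were all several times higher (ratio of means 8.03; change 2.94 log2, 2.78 to 3.10). HIST1H2AC went from 3.71, 5.94 and 5.79 FPKM to 41.4, 39.2 and 45.3, and the linker histone gene HIST1H1C rose by 2.23 log2. Of 36 tested clustered histone genes 19 rose and 0 fell in C312S cells (median 0.64), against 33.9% and 29.7% of all genes. In WT cells 28 rose (median 1.15), against 34% of all genes. The C312S effect was below the WT effect for 14 and above for 0, against 19.8% and 22.4% of all genes. HIST1H2AG, an H2A gene, changed by 0.67 log2 in C312S and 2.43 in WT cells (difference -1.76). Most histone transcripts lack a poly(A) tail, and near-identical copies may share reads, so these levels are uncertain as measures of single genes. The same holds for the read-through row NME1-NME2 (5.54 to 11.1 FPKM with DMSO, 60.8 to 85.5 with THZ1) and for BCYRN1, a brain cytoplasmic RNA with many genomic copies (4.01 to 20.03 and 51.0 to 70.4).

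The largest falls and the largest rises were both mostly in genes shorter than the median gene. The 12 largest falls by the naming rule spanned 3.03 to 32.4 kb with a median of 5.53 kb, against 30.9 kb over all matched genes, and the 12 largest rises had a median of 4.53 kb. SLC25A11, the mitochondrial oxoglutarate carrier, fell from 69.7, 72.9 and 75.03 FPKM to 18.2, 19.1 and 19.8. TINF2, a subunit of the telomere-protecting shelterin complex, fell from 23.5, 22.8 and 22.3 to 5.64, 4.96 and 6.01. In both genes all THZ1 libraries lay far below the DMSO libraries (ratios of means 0.263 and 0.242), and both changed by -1.87 log2. In WT cells SLC25A11 changed by -1.40 (difference -0.47, adjusted p = 8.3e-06) and TINF2 by -1.76 (difference -0.11, -0.33 to 0.12). ASF1B, a histone chaperone of replication, fell by 1.71 log2, UCP2, a mitochondrial carrier, by 1.86 and SNAPIN, a SNARE-associated protein gene, by 1.66. AS3MT, the arsenite methyltransferase, fell by 2.52, from 11.9 to 18.4 FPKM to 0.979 to 2.30.

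Chaperone genes rose together. Of 22 heat shock chaperones 17 rose and 2 fell in C312S cells, against 33.9% and 29.7% of all genes. Their median there was 0.39, and 0.17 with spike-in scaling. In WT cells 15 rose and 3 fell (median 0.20), against 34% and 34.8% of all genes. HSPH1, a nucleotide exchange factor of HSP70, rose by 0.66 log2, the HSP90 activator AHSA1 by 0.65 and the cochaperone DNAJB6 by 0.70. HSPA8, the constitutive HSP70, rose slightly in C312S cells, from 3665 to 3829 FPKM to 4059 to 4465 (0.17, or -0.05 with spike-in scaling), and fell by 0.39 in WT cells (difference 0.56). The mitochondrial chaperonin cofactor HSPE1 was 1 of the 2 that fell, by 0.39. Endoplasmic reticulum chaperones followed, with 11 of 19 higher and 2 lower in C312S cells, against 33.9% and 29.7% of all genes. Their median was 0.22, and 0.00 with spike-in scaling. In WT cells 12 rose and 4 fell (median 0.35), against 34% and 34.8% of all genes. HYOU1 rose by 0.82 log2 and HSPA5, the BiP chaperone, by 0.57 in C312S cells.

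Targets of NRF2, the transcription factor of the response to electrophiles and oxidants, rose in 18 of 22 cases in C312S cells (median 0.29). They fell in 2 cases, against 33.9% higher and 29.7% lower over all genes. In WT cells 15 rose and 2 fell (median 0.33), against 34% and 34.8% of all genes. FTL, the ferritin light chain, was at 437, 460 and 468 FPKM and then at 841, 821 and 937, a change of 0.92 log2 that differed from that of WT cells by -0.12 (-0.27 to 0.04). AKR1C1, an aldo-keto reductase, rose by 1.49. NQO1, a quinone reductase often used as the readout of this pathway, rose by only 0.22 in C312S cells against 1.35 in WT cells (difference -1.13, -1.30 to -0.97, adjusted p = 2.5e-12). In the integrated stress response list 14 of 36 genes rose and 13 fell in C312S cells (median -0.02), against 33.9% and 29.7% of all genes. In WT cells 9 genes of the list rose and 20 fell (median -0.20), against 34% and 34.8% of all genes. ATF4, the main factor of this response, was at 495 to 504 FPKM with DMSO and 463 to 517 with THZ1 in C312S cells. These groups overlapped (change -0.05, and -0.10 with a call without THZ1 replicate 3). In WT cells ATF4 fell by 0.72 (difference 0.67).

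The counts of the metabolic groups are set against 33.9% higher and 29.7% lower over all genes in C312S cells. Of 25 cholesterol genes 13 rose and 5 fell in C312S cells (median 0.31), with SQLE, the squalene epoxidase, higher by 0.78 log2 and HMGCS1 by 0.61, and with TM7SF2 lower by 0.94. Of 34 glycolysis and hypoxia genes 20 rose and 4 fell in C312S cells (median 0.19, and -0.03 with spike-in scaling), with GAPDH higher by 0.72. In WT cells 12 cholesterol genes rose and 8 fell (median 0.10), against 34% and 34.8% of all genes. Of the glycolysis and hypoxia genes 22 rose and 6 fell there (median 0.34). Nuclear genes of oxidative phosphorylation were 28 higher and 12 lower of 71 in C312S cells (median 0.06, and -0.16 with spike-in scaling), close to the all-gene share of rises, and 48 higher and 8 lower in WT cells (median 0.30), against 34% and 34.8% of all genes. For 42 of the 71 the C312S effect was below the WT effect and for 2 above, against 19.8% and 22.4% of all genes. ATP5B, the beta subunit of ATP synthase, rose by 0.44 log2 against 0.89 in WT cells (difference -0.44), and NDUFB5, a subunit of complex I, fell by 0.91 against 0.16 (difference -0.75).

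The median changes of RNA processing genes were near 0 in C312S cells and below 0 in WT cells. Of 24 hosts of small nucleolar RNAs and long nuclear RNAs 6 rose and 11 fell in C312S cells (median -0.07). The shares of all genes were 33.9% and 29.7%. In WT cells 5 rose and 16 fell (median -0.60), against 34% and 34.8% of all genes. The C312S effect was above the WT effect for 13 and below for 0, against 22.4% and 19.8% of all genes. SNHG12, such a host, was at 42.1, 41.6 and 42.8 FPKM with DMSO and at 29.1, 32.7 and 28.6 with THZ1. This fall of 0.47 log2 was larger than the spread within the groups and much smaller than that of WT cells, which went from 33.9 ± 1.0 to 6.74 ± 1.3 FPKM (difference 1.72, 1.47 to 1.96, adjusted p = 1.5e-12). SNHG7 did not pass in C312S cells (113 to 115 FPKM against 109 to 114, change -0.03) and fell by 1.51 in WT cells (difference 1.48, 1.28 to 1.68). Among 29 hnRNP and SR splicing factors 11 rose and 5 fell (median 0.04, and -0.06 or -0.18 with total-FPKM or spike-in scaling), a share of rises near the 33.9% of all genes, and 7 rose and 17 fell in WT cells, against 34% and 34.8% of all genes. HNRNPR rose by 0.41 log2 in C312S and fell by 0.28 in WT cells (difference 0.69), and SRSF1 fell by 0.30 against 0.98 (difference 0.69).

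**Figure D5:**
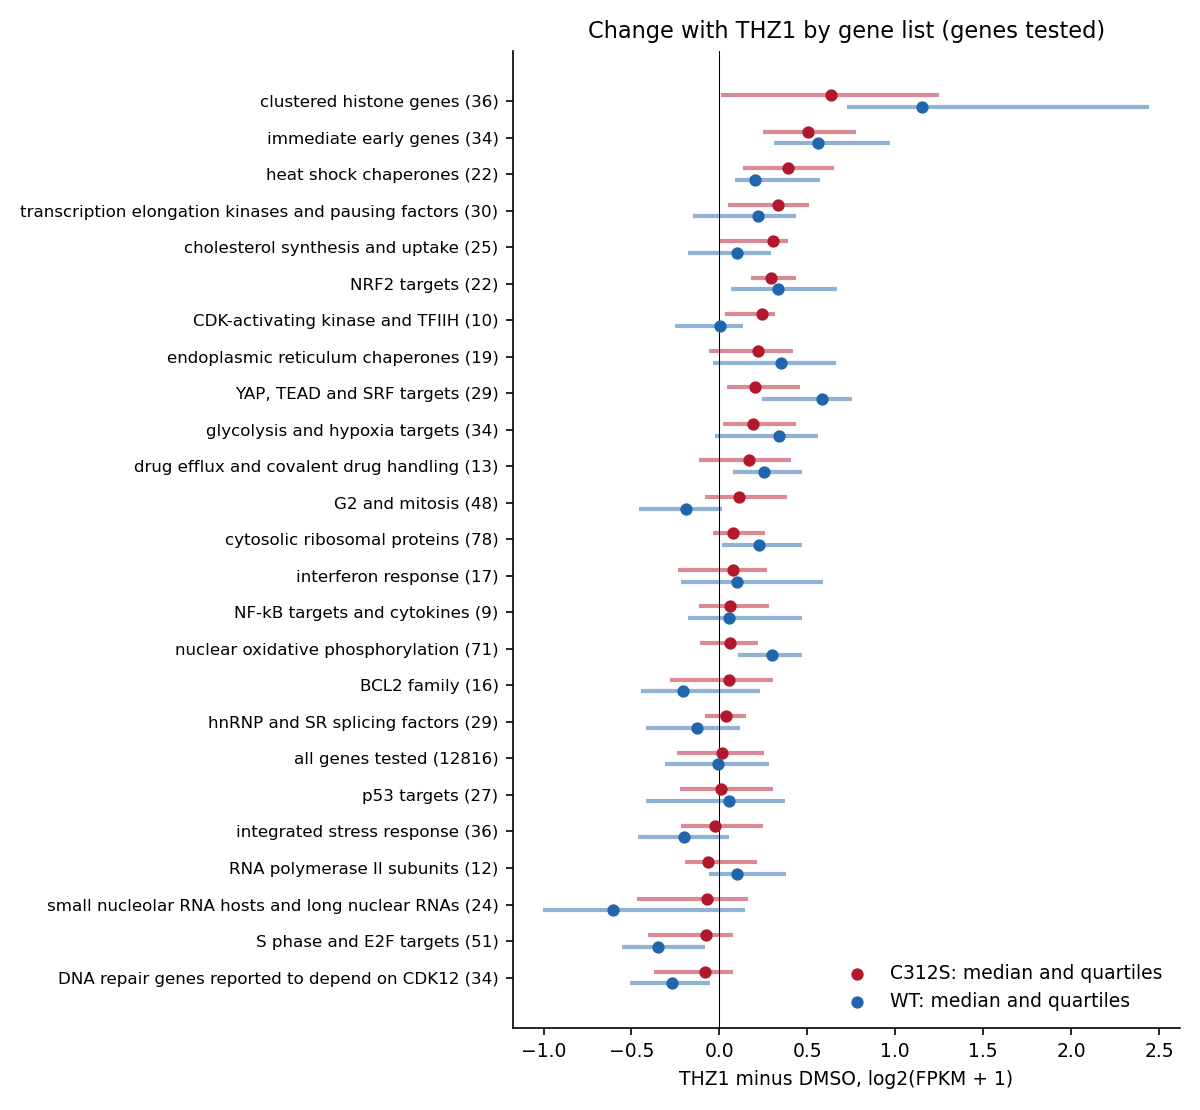
Median change with THZ1 (point) and quartiles (bar) on the log2(FPKM + 1) scale for each gene list and for all genes tested, C312S in red and WT in blue, with the number of genes tested in brackets. Histone (0.64) and immediate early genes (0.51) have the highest C312S medians, and the CDK12-dependent repair list (-0.08) the lowest.

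Some single genes differed widely between the lines, and 5 of those the naming rule picked are described here. TLCD1, a membrane lipid regulator, went from 9.10, 7.63 and 6.09 FPKM to 1.02, 1.51 and 0.659 in C312S cells, and from 10.8 ± 0.9 to 9.50 ± 0.9 in WT cells. It fell by 2.07 log2 in the former and by 0.16, without passing the test, in the latter (difference -1.90, -2.26 to -1.55). SPARCL1, a secreted matrix protein, rose in both lines, from 2.01 to 2.42 FPKM to 6.54 to 7.87 in C312S cells and from 3.34 ± 0.5 to 40.1 ± 4.0 in WT cells (changes 1.35 and 3.24, difference -1.89). A2M, the protease inhibitor alpha-2-macroglobulin, stayed under 0.2 FPKM in all 6 C312S libraries and rose from 1.73 ± 0.15 to 12.4 ± 0.3 in WT cells (difference -2.23). In the other direction DNAJC12, a cochaperone of aromatic amino acid hydroxylases, went from 3.96, 1.67 and 2.87 FPKM to 13.4, 13.5 and 17.8 in C312S cells. Its rise of 2.08 log2 exceeded the 0.83 of WT cells by 1.26 (0.66 to 1.85, adjusted p = 0.00083). RABGGTB, a subunit of the Rab prenylating enzyme, fell by 0.41 in C312S and by 1.69 in WT cells (difference 1.29).

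Survival genes rose and fell in C312S cells in shares near those of all genes. MCL1, a short-lived antiapoptotic protein, was at 46.3, 46.9 and 49.4 FPKM with DMSO and at 49.3, 49.4 and 45.6 with THZ1 in C312S cells. These libraries overlapped, and the change of 0.02 (-0.08 to 0.12, adjusted p = 0.78) did not pass. It rose by 0.19 in WT cells, and the difference of -0.17 (-0.31 to -0.03) lost its call without any 1 of C312S DMSO replicates 2 and 3, C312S THZ1 replicate 3, WT DMSO replicates 2 and 3 and WT THZ1 replicates 2 and 3 (-0.18 to -0.13). Of 16 BCL2 family genes 5 rose and 5 fell in C312S cells, near the 33.9% and 29.7% of all genes. Their median of 0.05 turned negative with total-FPKM (-0.04) and spike-in (-0.16) scaling. BCL2L1 rose by 0.36 log2, and BCL2L2 and BCL2L13 fell by 1.00 and 1.12. ABCB1, the efflux pump P-glycoprotein, was higher in the substituted line in both conditions, at 8.26, 7.62 and 7.002 FPKM with DMSO and 12.3, 12.03 and 12.2 with THZ1, against 2.42 and 5.49 on average in WT cells. It rose by 0.62 log2 in C312S and 0.93 in WT cells (difference -0.31, -0.48 to -0.14).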

How the data were processed

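The values are FPKM per gene as deposited by the authors. HISAT2 2.0.4, Cufflinks 2.2.1, Cuffnorm and build hg19 are named in the submitters' processing notes, with no order; their settings are not stated there. The labels' protocols name a stranded kit. Columns were matched through sample descriptions. Depth is unknown, so intervals cover the spread between libraries only.

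The 12816 of 26228 genes that reached 1 FPKM in 3 or more libraries were fitted with limma 3.58.1 (R 4.3.3) on log2(FPKM + 1): 14 group means over all 42 libraries, a trended prior, and Benjamini-Hochberg adjusted p under 0.05. This scale understates changes of low genes. The line difference is the interaction term. Spike-in level is the median log2 ratio of 23 ERCC rows minus that of 10376 genes. The fit was tested on simulated data.

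Members, lists and rules were chosen with earlier results of these data known. Named are called genes with separate libraries, at least 5 FPKM in a group, no exact 0 and no short RNA: the 12 largest rises and falls, up to 3 rising and 3 falling per list by p, the largest line differences, all CDK-activating kinase and TFIIH genes, and a few cell cycle and transcription genes; some genes the rule picks are not reported here, and EGR1 and the marker genes fall outside it. Promoters (RefSeq, GRCh38.p14) and coding stretches (GENCODE 29, GRCh38) were matched by symbol and not converted between builds. Python 3.11.15 and matplotlib 3.10.9 drew the plots. Alternatives were another pseudocount, filters, scalings, a replicate block, only the compared groups and leaving out each library.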

Additional observations from a re-analysis of the deposited data

Results flagged for a closer look

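For 38 of the 43 named genes for which a difference between the lines is given, the effect of THZ1 (log2(FPKM + 1), THZ1 minus DMSO) differed between C312S and WT cells by the interaction test in limma at adjusted p under 0.05, against 42.2% of all genes. The genes were partly named for such differences, so their number is no result.

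The C312S effect was above the WT effect for SNHG12 (1.72), SNHG7 (1.48), RABGGTB (1.29) and DNAJC12 (1.26). Among mitotic and replication genes it was above for BUB1B (0.76), AURKA (0.71), E2F1 (0.59), AURKB (0.57), MCM6 (0.55), TPX2 (0.49) and CDK1 (0.31). For RNA-binding and chaperone genes the differences were 0.69 for HNRNPR, 0.69 for SRSF1 and 0.56 for HSPA8. They were 0.67 for the stress factor gene ATF4, 0.63 for SGK1, 0.59 for MYC, 0.49 for FANCA, 0.47 for CDK7 and 0.37 for ACTG1.

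The C312S effect was below the WT effect for A2M (-2.23), TLCD1 (-1.90), SPARCL1 (-1.89), CDKN1A (-1.86) and HIST1H2AG (-1.76). Among early response and YAP target genes the differences were -1.28 for IER3, -1.04 for KLF10, -0.87 for CYR61 and -0.55 for CTGF. NQO1 (-1.13), POLR2A (-0.82) and NELFE (-0.80) followed. Mitochondrial genes differed by -0.75 for NDUFB5, -0.47 for SLC25A11 and -0.44 for ATP5B. The smallest were CDK2 (-0.41), ABCB1 (-0.31) and MCL1 (-0.17). The part that clones or sets of libraries have in these differences was not tested.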

How the results depend on the processing

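Counts of calls, 107 named changes in C312S cells and 43 named differences were recomputed with a pseudocount of 0.1, no filter or 5 FPKM in 3 libraries, 3 scalings, only the compared groups, a replicate block, and without each library. Median ratio scaling moved the median change of all genes by only -0.0005 in C312S and 0.0054 in WT cells, so it nearly repeats the main fit. Leaving out 1 library gave 7645 to 7869 calls in C312S cells, 8404 to 8479 in WT cells and 4992 to 5270 for the difference, and a spike-in shift of 0.116 to 0.288. With a replicate block the counts were 8202, 8872 and 5481, and the call of the MCL1 difference was lost (adjusted p = 0.0633). Replicate numbers did not pair the libraries: same-numbered C312S libraries correlated at -0.11, -0.124 and -0.0039 after removing group means, and not every library correlated best with its own number. Without spike-in scaling no named change or difference reversed. Spike-in scaling gave 5052 calls in C312S cells and 12317 for the difference, and reversed the changes of CCNH (-0.061), CYR61 (-0.020) and HSPA8 (-0.051). It reversed the differences of HIST1H2AG (0.074), NELFE (1.33), POLR2A (1.35), CDK2 (1.74), CDKN1A (0.13), CTGF (1.502), CYR61 (1.29), MCL1 (1.98), NQO1 (1.00), ATP5B (1.76), NDUFB5 (1.43), SLC25A11 (1.64), TLCD1 (0.45), ABCB1 (1.26), KLF10 (0.89) and IER3 (0.61). C312S list medians that it reversed were G2 and mitosis (-0.092), p53 (-0.20), BCL2 (-0.16), interferon (-0.063), NF-kB (-0.13), ribosomal (-0.14), oxidative phosphorylation (-0.16), glycolysis and hypoxia (-0.034), hnRNP and SR (-0.18) and drug efflux (-0.043). Total-FPKM scaling reversed p53 (-0.089), BCL2 (-0.043), NF-kB (-0.027) and hnRNP and SR (-0.060), the filter at 5 FPKM reversed BCL2 (-0.067), and testing without a filter reversed the epithelial and fibroblast markers (-0.0019). The cause was not tested. Depth is unknown, so levels near 0, such as those of A2M, have no counting error; its change was called only with the pseudocount of 0.1 (0.36).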

Other observations

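Ribosomal protein genes, most of them members of a family with processed copies, were 30 higher and 7 lower of 78 in C312S cells, against 33.9% and 29.7% of all genes, with a median of 0.08 that was -0.14 with spike-in scaling. RPL11, a subunit of the large ribosome, was at 3787, 3774 and 3773 FPKM with DMSO and at 5052, 5021 and 5733 with THZ1. RPL13A, another large subunit gene and a host of small nucleolar RNAs, went the other way, from 1776, 1688 and 1645 FPKM to 1290, 1310 and 1573. All RPL13A libraries with THZ1 lay below those with DMSO, with replicate 3 the closest (change -0.30 log2, adjusted p = 0.000204 by limma). The inhibitor of differentiation ID2, one of the 12 largest rises, was at 15.3, 14.7 and 14.5 FPKM and then at 74.2, 67.9 and 82.7, a change of 2.26 log2.

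Inflammatory and interferon genes included both rises and falls in C312S cells. Of 17 interferon response genes 6 rose and 5 fell, near the 33.9% and 29.7% of all genes. Of 9 NF-kB targets and cytokines 3 rose, near that share of rises, and 1 fell. BST2, the antiviral tetherin, fell by 0.59 log2. The chemokine gene CCL2 rose by 0.89 and SOD2, the mitochondrial superoxide dismutase, by 0.75. GATA2, the blood progenitor factor, was the highest of the blood cell markers and went from 6.33, 7.20 and 7.05 FPKM to 9.53, 8.49 and 8.78.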
